A study of Mus musculus with 6 samples.

Results

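The mitochondrial protein import machinery was examined here as a set of 43 genes, out of 55401 genes in the deposited tables. The set was proposed with earlier results of these data known. Its members were then taken by gene symbol, and it holds every gene whose symbol starts with Tomm or Timm and a digit, together with named genes of the import motor, the processing peptidase, the sorting and assembly machinery, the disulfide relay, the inner membrane insertase, the matrix proteases and the prohibitins. The RNA was taken from germinal centre B cells of the spleen. The mice were wild type, of strain C57BL/6, received SRBC (sheep red blood cells) i.p., were challenged with them 5 days later and were killed on day 12. Sorted cells gave 3 libraries of a DN subset and 3 of a DP subset, and the labels do not spell these names out. All libraries share genotype, strain, treatment and batch label. Per the design text, 3 mice contributed cells of both kinds. Which library came from which mouse is not stated, so the p-values rest on library-to-library spread alone, and part of it may be technical.

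Almost every mitochondrial protein is made in the cytosol and has to be carried into the organelle. Precursors pass the outer membrane through the TOM complex. From there the TIM23 complex and its motor pull presequence proteins into the matrix, the TIM22 complex inserts carrier proteins with the help of small TIM chaperones, and the MIA40 disulfide relay traps small cysteine-rich proteins in the intermembrane space. Activated B cells are known to build up mitochondrial mass when they enter growth, and the matrix proteases and prohibitins keep imported proteins in order.

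The DN libraries held 8904415 to 11897360 gene counts each, the DP libraries 17509384 to 20538024. Levels are CPM, counts scaled to a common library size with TMM factors, which correct for RNA composition, and a level of 3 counts, taken as the floor, was 0.155 to 0.315 CPM across the libraries and covers counting error only. Defining genes of germinal centre B cells were detected in both groups, but 7 of 8 were lower in DP and 1 was higher. Markers of other cells moved with the groups as well. The summed level of 5 erythroid markers was 52.0 to 62.9 CPM in DN and 14.1 to 17.0 CPM in DP, and that of 6 macrophage markers was 19.2 to 21.3 and 7.18 to 8.55 CPM. For 6 T cell markers it was 2.12 to 3.67 and 0.978 to 1.25 CPM. The 5 plasma cell markers summed to 387 to 398 CPM in DN and 293 to 306 CPM in DP. Of the 4 tested, 3 rose and Jchain fell. Over all tested genes 38.3% were called higher and 37.6% lower in DP. Sdc1 had 14 counts over the DN libraries and 80 over the DP libraries. It passed the filter on low counts only through DP, so its rise carries little weight. Prdm1 had 40 and 183 counts, and Xbp1 was at 113 and 140 CPM. The plasma cell marker Tnfrsf17 had 3 counts over the DN libraries and 0 over the DP libraries. The part of these cells in the results below was not tested. In sorted bulk samples, fewer cells of a kind and less RNA per cell cannot be told apart.

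The import genes were higher in DP almost throughout. Of the 43 genes, 39 passed the filter on low counts, and of these 35 rose in DP, 1 fell and 3 did not pass an adjusted p of 0.05. Over all 11296 tested genes, 75.9% were called, 38.3% as higher and 37.6% as lower in DP. The median log2 fold change of DP against DN was 0.78 for the tested import genes, with quartiles of 0.40 and 1.13, and 0.01 for all tested genes, with quartiles of -0.53 and 0.53. Among the import genes 16 rose at least 2-fold, against 12.3% of all tested genes. Since import genes are mostly well expressed, the count was also taken among genes of at least 10 CPM on average. There 33 of 34 import genes rose, against 44.7% of all genes at that level. All DP libraries lay above all DN libraries for 36 import genes, against 39% of tested genes. The counts of single roles below are read against these same shares over all tested genes.

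With library totals alone in place of TMM factors, which lowered the median of all tested genes to -0.19, 31 import genes rose and 2 fell. Over all tested genes, 4328 were higher and 4243 lower in DP with TMM factors, and 3288 were higher and 5359 lower with library totals alone. The import genes together took 0.152%, 0.157% and 0.158% of gene counts in the DN libraries and 0.245%, 0.255% and 0.250% in the DP libraries, without any scaling factor. The groups did not overlap in this share. Their summed level rose from 1455 ± 31.2 to 2677 ± 31.1 CPM (SD, n = 3), a ratio of 1.84.

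**Figure D1:**
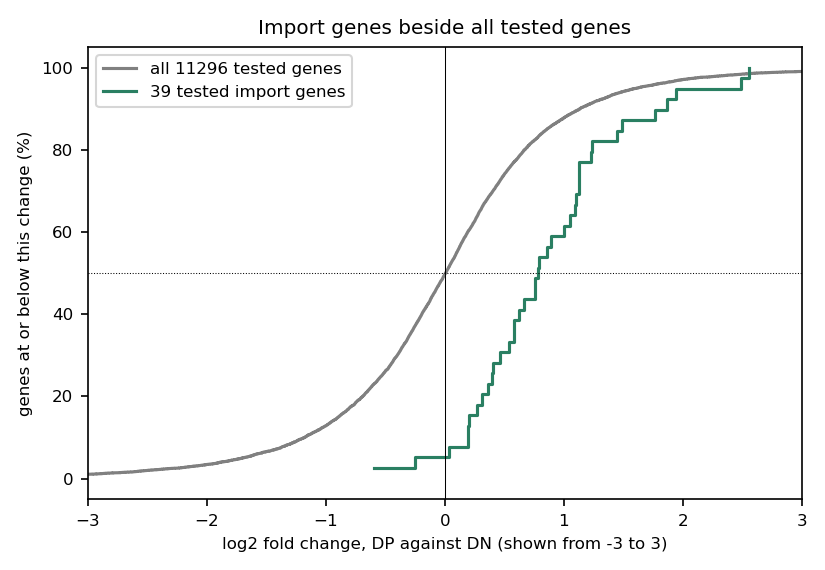
Cumulative share of genes (vertical axis, percent) by log2 fold change of DP against DN (horizontal axis, shown from -3 to 3), for all tested genes in grey and the tested import genes in green. The green curve lies to the right of the grey one over most of its length, with medians of 0.78 and 0.01.

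**Figure D2:**
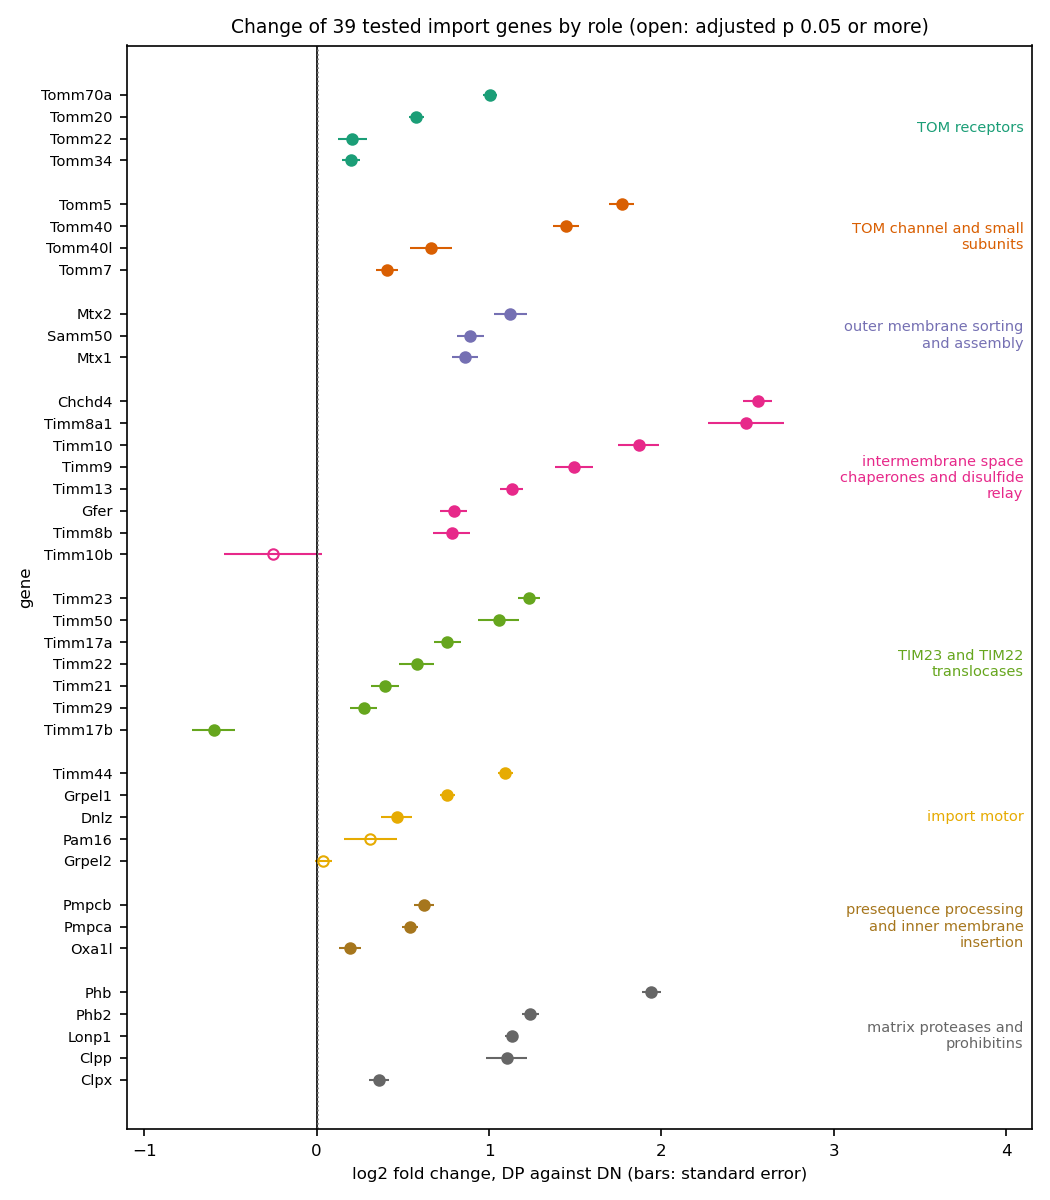
Log2 fold change of DP against DN (horizontal axis) with its standard error for each of the 39 tested import genes, grouped and coloured by role. Filled points passed an adjusted p of 0.05 and open points did not; the dotted line marks the median of all tested genes. Timm17b is the filled point left of 0.

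Because most import genes moved in 1 direction, the letters of their promoters were searched for 4 short motifs on both strands, in windows from 250 bases before to 50 bases after each start in the RefSeq annotation of GRCm38.p6. A window was found by symbol for 39 of the 43 genes and for 35 of those tested. A gene counted if any of its windows held the pattern. The shares of all windows are per single window and include genes that were not tested. Only the shares of tested genes therefore compare like with like. The E-box CACGTG, which reads the same on both strands and is the letter pattern bound by MYC and related factors, occurred in 6 of the 35 (17.1%), against 12.4% of 8436 tested genes with a window and 7.15% of all 32851 windows. The ETS pattern CCGGAAG occurred in 16 (45.7%), against 22.9% of tested genes and 8.86% of all windows. An NRF1 pattern (GCGC, any letter, TGCGC) was in 6 (17.1%), against 13% and 4.6%, and the ATF4 pattern TGATGNAA in 0 of 35, against 2.75% and 3.97%. ETS matches on opposite strands can overlap each other, and a match is a description of letters, not of binding.

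The 6 import genes with an E-box had a median log2 change of 1.68, with 5 of them at 1 or more, and the 29 without it had a median of 0.78, with 11 at 1 or more. Over all tested genes the medians were 0.16 with and 0.00 without the E-box, and 200 of 1042 genes with it and 839 of 7394 without it were at 1 or more. For the ETS pattern the medians were 0.77 for the 16 with it and 1.06 for the 19 without it, and for the NRF1 pattern they were 0.68 for the 6 with it and 0.89 for the 29 without it. Over all tested genes the order was the other way, with medians of 0.09 with and -0.0016 without the ETS pattern, and of 0.12 with and 0.01 without the NRF1 pattern. These medians are given without a test. Lonp1, Phb, Timm8a1, Timm9 and Tomm20 carried the E-box upstream of the RefSeq start. Timm9 and Timm8a1 held a further copy at or after the start, and Timm10 carried it only after the start. Untested Tomm20l held one upstream as well. The 60 bases around the 5 upstream sites are shown because they place the motif in the genes whose levels are given below, 5′ to 3′ on the gene's strand with the E-box in capitals. They lie at chr11:95666707-95666766 (plus strand) for Phb, chr12:71136701-71136760 (minus) for Timm9, chr17:56626907-56626966 (minus) for Lonp1, chrX:134541861-134541920 (minus) for Timm8a1 and chr8:126946015-126946074 (minus) for Tomm20.
Phb: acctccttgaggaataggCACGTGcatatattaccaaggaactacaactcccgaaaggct
Timm9: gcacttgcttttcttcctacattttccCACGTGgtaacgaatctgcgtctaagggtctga
Lonp1: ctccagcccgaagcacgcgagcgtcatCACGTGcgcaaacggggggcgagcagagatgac
Timm8a1: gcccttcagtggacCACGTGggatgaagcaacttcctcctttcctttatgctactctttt
Tomm20: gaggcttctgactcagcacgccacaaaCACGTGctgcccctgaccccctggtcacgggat
The first letter of the E-box stood 232 bases before the RefSeq start in Phb, 58 in Timm9, 36 in Lonp1, 236 in Timm8a1 and 126 in Tomm20. Starts differ between annotations. In GENCODE M21 the 5′ end of Timm8a1, at 134541865, is closer to its E-box than the RefSeq start is. The flanking letters differed from gene to gene.

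The ETS pattern lay upstream of the RefSeq start in 5 import genes that rose at least 2-fold, Mtx2, Timm10, Phb2, Timm23 and Tomm70a. These genes were picked after their values were seen. The 40 bases around the other upstream matches are shown because they place the pattern in genes whose levels are given below, 5′ to 3′ on the gene's strand with the match in capitals. Matches that lie in an exon in GENCODE M21 are not shown, namely that of Timm10 and the nearer one of Tomm70a, both in the gene's own first exon, and a further one of Phb2, in an exon of its neighbour Emg1. The stretches lie at chr2:74825771-74825810 (plus strand) for Mtx2, chr6:124712200-124712239 (plus) for Phb2, chr14:32201915-32201954 (minus) for Timm23 and chr16:57121618-57121657 (plus) for Tomm70a.
Mtx2: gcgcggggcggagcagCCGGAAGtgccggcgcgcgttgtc
Phb2: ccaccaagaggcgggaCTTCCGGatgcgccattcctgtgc
Timm23: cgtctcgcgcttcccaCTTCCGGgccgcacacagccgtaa
Tomm70a: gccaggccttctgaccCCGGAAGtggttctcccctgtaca
In Phb2 and Timm23 the pattern was on the opposite strand, as CTTCCGG.

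The receptors of the outer membrane rose unevenly. Tomm70a, the receptor that takes over carrier precursors from cytosolic chaperones, stood at 107, 113 and 111 CPM in the DN libraries and at 226, 215 and 222 CPM in the DP libraries. The groups were far apart, and the log2 change was 1.00 ± 0.04 (standard error, edgeR adjusted p = 1.62e-30). Tomm20, the receptor for presequences, was at 90.1, 94.1 and 94.9 CPM in DN and at 137.6, 142 and 136 CPM in DP (0.58 ± 0.04). Tomm22, the central receptor that ties the others to the channel, was at 19.3, 21.1 and 20.4 CPM in DN and at 23.97, 23.3 and 22.7 CPM in DP, so that the groups lay close without overlapping. Its change of 0.21 ± 0.08 passed with an adjusted p of 0.0207, but the call was lost in 6 of 16 alternatives, among them those without DN replicate 1 (adjusted p = 0.0961) or DP replicate 1 (adjusted p = 0.0536). Over all its alternatives the adjusted p of Tomm22 ran up to 0.910, with library totals alone. Tomm34, a cytosolic cochaperone of precursors, rose by 0.20 ± 0.05, a call that library totals alone also removed (log2 change 0.00). Tomm20l, a relative of Tomm20, had no count in any library, which allows a level of up to the floor.

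The channel itself and one small subunit changed more than the receptors. Tomm40, which forms the pore of the outer membrane, was at 17.4, 21.1 and 20.6 CPM in the DN libraries and at 50.6, 57.8 and 51.1 CPM in the DP libraries. Every DP library was above every DN library, and the log2 change was 1.45 ± 0.07. The small subunit gene Tomm5 went from 16.2, 17.5 and 16.3 CPM in DN to 55.1, 57.6 and 57.6 CPM in DP (1.77 ± 0.07, adjusted p = 4.54e-31). Tomm7, another small subunit, rose by 0.41 ± 0.06 from 36.1 ± 3.27 to 48.2 ± 0.538 CPM. Tomm40l, a relative of Tomm40, rose by 0.66 ± 0.12 from 7.42 CPM, but 64.3% of its exon bases are shared with Nr1i3 on the opposite strand and the strand setting of the counting is not given in the sources used here, so its reads are uncertain. Tomm6 is listed at 0 in every library. Of its annotated exon bases, 76.0% are also exons of Gm21981 on the same strand, which is listed at 0 too, so that no level of Tomm6 can be read from these tables. Tomm6os, a noncoding transcript antisense to it that the symbol rule also took, had 1 count in the DN libraries together and 3, 4 and 4 counts in the DP libraries, too few for a test.

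For the sorting and assembly machinery, which folds barrel-shaped proteins into the outer membrane, all 3 genes rose. Samm50, its central subunit, was at 18.3, 23.3 and 21.5 CPM in DN and at 38.2, 39.5 and 38.1 CPM in DP (0.89 ± 0.08). Its partner metaxin genes Mtx1 and Mtx2 rose by 0.86 ± 0.08 and 1.12 ± 0.09.

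The 2 largest rises among the import genes, of Chchd4 and Timm8a1, belonged to the intermembrane space, where 7 of 8 tested genes rose, 5 of them at least 2-fold, with a median log2 change of 1.31. Chchd4, which encodes the oxidoreductase MIA40, was at 8.80, 8.29 and 8.42 CPM in the DN libraries and at 50.4, 51.7 and 48.7 CPM in the DP libraries. The libraries of a group were almost level with each other, and the log2 change of 2.56 ± 0.09 (adjusted p = 2.47e-35), a 5.89-fold rise, was higher than that of 98.5% of tested genes. Gfer, the sulfhydryl oxidase that recharges MIA40, was at 17.1, 19.0 and 21.3 CPM in DN and at 33.0, 33.1 and 32.9 CPM in DP (0.79 ± 0.08).

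Small TIM chaperones, which shield hydrophobic precursors on their way through the intermembrane space, followed in the same direction. Timm8a1 had 14, 13 and 11 counts in DN and 94, 131 and 128 counts in DP, or 1.198 ± 0.145 and 6.73 ± 1.12 CPM. The low DN counts leave a wide error on its change of 2.49 ± 0.22. Timm10 rose by 1.87 ± 0.12, Timm9 by 1.49 ± 0.11, Timm13 by 1.13 ± 0.07 and Timm8b by 0.78 ± 0.11. Timm10 was at 6.45, 4.83 and 4.93 CPM in DN and at 19.5, 20.6 and 20.1 CPM in DP, and Timm9 at 6.68, 6.51 and 6.26 CPM in DN and at 18.5, 18.1 and 18.4 CPM in DP. Timm9 and Timm10 proteins form 1 ring-shaped chaperone together. Timm10b, whose product belongs to the TIM22 complex, was the exception, at 1.49, 2.20 and 1.54 CPM in DN and at 1.54, 1.55 and 1.22 CPM in DP. Those groups overlapped, and its change of -0.25 ± 0.29 did not pass (adjusted p = 0.423). Timm8a2 had 4, 1 and 1 counts in DN and 0, 1 and 1 in DP and was not tested.

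In the inner membrane, 6 of 7 translocase genes rose and 1 fell. Timm23, which forms the presequence translocase, was at 38.9, 52.4 and 42.6 CPM in DN and at 100.3, 102.7 and 108.9 CPM in DP (1.23 ± 0.07), with the DN libraries the more scattered. Timm50, the receptor that hands precursors to this complex, was at 6.45, 7.14 and 6.67 CPM in DN and at 13.2, 14.2 and 14.5 CPM in DP (1.06 ± 0.12). Of the TIM22 complex, which inserts carriers, the channel gene Timm22 rose by 0.58 ± 0.10 and Timm29 by 0.27 ± 0.08, the latter a call that library totals alone removed (0.08, adjusted p = 0.387). Timm21, a TIM23 subunit that couples import to the respiratory chain, rose by 0.40 ± 0.08.

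The paralogues Timm17a and Timm17b, alternative core subunits of TIM23, moved in opposite directions. Timm17a was at 24.8, 19.7 and 19.1 CPM in the DN libraries and at 36.9, 35.9 and 36.1 CPM in the DP libraries (0.76 ± 0.08). Timm17b was at 10.1, 10.7 and 11.2 CPM in DN and at 6.53, 6.73 and 7.88 CPM in DP, a fall of 0.60 ± 0.12 (log2 change -0.60, adjusted p = 2.36e-05) and the 1 fall among the tested import genes. Neither gene's groups overlapped.

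The import motor, which pulls precursors into the matrix with the mitochondrial Hsp70, gave 3 rises among 5 genes. Timm44, the tether of Hsp70 to the channel, was at 103, 104 and 116 CPM in DN and at 224, 232 and 232 CPM in DP (1.09 ± 0.04, adjusted p = 1.32e-31). Grpel1, a nucleotide exchange factor of that Hsp70, rose by 0.76 ± 0.04 and Dnlz, its escort protein, by 0.46 ± 0.09. The other exchange factor, Grpel2, was at 92.4, 79.2 and 88.6 CPM in DN and at 85.0, 92.2 and 90.6 CPM in DP, and the groups overlapped (0.04 ± 0.05, adjusted p = 0.494). With library totals alone Grpel2 was lower in DP (-0.16, adjusted p = 0.00472). Pam16, a regulator of the motor, was at 5.74, 5.25 and 4.62 CPM in DN and at 5.93, 6.79 and 6.78 CPM in DP. Its groups were apart but its change of 0.31 ± 0.15 did not pass (adjusted p = 0.0592), although it did in 3 of 16 alternatives, with adjusted p between 0.0353 and 0.0384.

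All 3 genes of processing and insertion rose, none of them 2-fold. Pmpca and Pmpcb, the subunits of the peptidase that removes presequences, rose by 0.54 ± 0.05 and 0.62 ± 0.06. Oxa1l, the insertase for proteins of the respiratory chain, was at 37.6, 37.7 and 37.3 CPM in DN and at 39.5, 45.3 and 43.7 CPM in DP. Its small rise of 0.19 ± 0.06 (adjusted p = 0.00616) was lost with library totals alone (adjusted p = 0.970).

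The 3 matrix protease genes and both prohibitin genes of the set rose, 4 of the 5 at least 2-fold. Phb, a prohibitin, was at 32.9, 38.8 and 37.7 CPM in the DN libraries and at 140.1, 146 and 131 CPM in the DP libraries (1.94 ± 0.06, adjusted p = 3.13e-38). Phb2, its partner in the ring complex of the inner membrane, was at 77.0, 96.8 and 87.9 CPM in DN and at 199, 205 and 209.8 CPM in DP (1.24 ± 0.05). Both were wholly separated between groups, and the rise of Phb was the larger.

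Lonp1, the main ATP-dependent protease of the matrix, was at 154, 148 and 150.4 CPM in DN and at 328, 333 and 329.8 CPM in DP (1.13 ± 0.04). Clpp, the proteolytic subunit of the second matrix protease, was at 6.60, 6.40 and 7.18 CPM in DN and at 15.7, 13.3 and 14.4 CPM in DP (1.103 ± 0.12). Clpx, the unfoldase that feeds Clpp, rose by less, from 45.7, 50.4 and 47.4 CPM in DN to 61.7, 60.2 and 61.96 CPM in DP (0.36 ± 0.06).

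**Figure D3:**
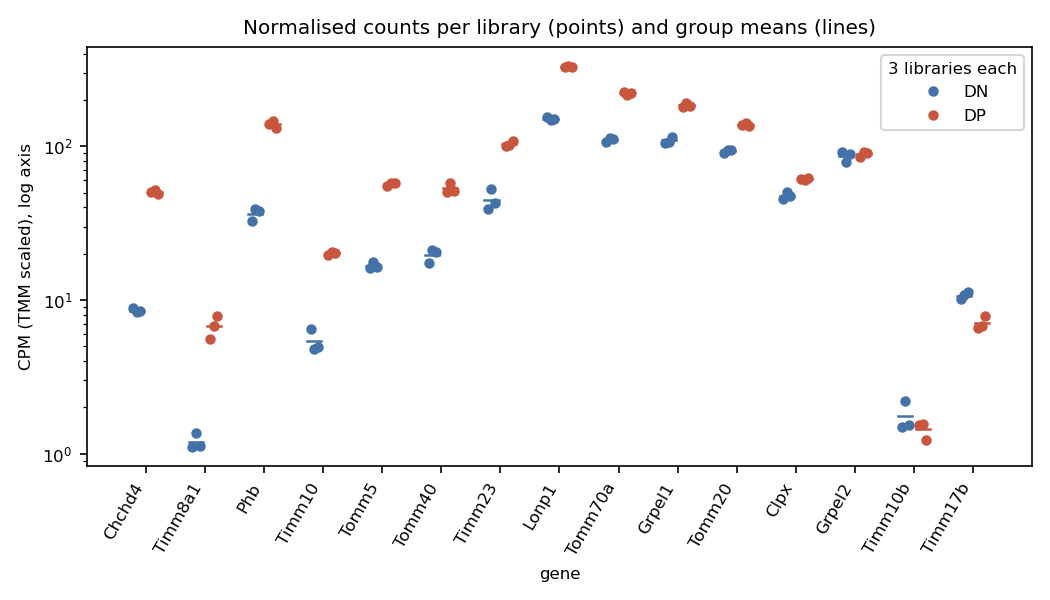
CPM after TMM scaling (vertical log axis) of 15 import genes in each library, with DN in blue and DP in red; points are the 3 libraries of a group, side by side without order, and lines are group means. Groups are wholly apart for every gene shown except Grpel2 and Timm10b, and DP lies below DN for Timm17b.

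In the mm10 build, Chchd4 (ENSMUSG00000034203.8) lies on chromosome 6 from 91462172 to 91473546 and Phb (ENSMUSG00000038845.11) on chromosome 11 from 95666957 to 95680773. Timm17a lies on chromosome 1 from 135295213 to 135313778. Timm8a1 lies on chromosome X from 134537256 to 134541865 and Timm17b on the same chromosome from 7899357 to 7908351. These genes carry a protein-coding annotation. Reads that map to several places were set aside in the deposited tables, which matters for genes with close copies. By sequence, 13 of the 43 genes resemble at least 1 annotated pseudogene at 90% identity or more over at least 200 bases, with 10 such copies for Tomm20, 6 for Timm23, 5 for Phb and 1 each for the others, Timm8a1, Chchd4, Timm17a and Timm17b among them. Their levels are therefore less certain than those of the others. Mtx1, Timm10b, Pmpca, Pam16, Timm8b and Grpel1 share between 11.65% and 30.1% of their exon bases with other genes, so part of their reads is uncertain too.

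Levels of different genes were compared per exon length, as TPM, a length-corrected share of all transcripts (not TMM scaled, mean ± SD, n = 3). In DN the tested genes ran from 1.92 ± 0.433 TPM for Timm10b to 136 ± 3.67 TPM for Lonp1, with Tomm7, Grpel1 and Timm44 next at 126 ± 11.8, 122 ± 5.00 and 116 ± 7.01 TPM, and each of these differed from its neighbour by less than their 2 SDs together. The order at the top depends on the length used. With the longest transcript, Timm23 was highest at 111 TPM, followed by Phb2 at 107, Timm44 at 103 and Lonp1 at 101 TPM. Partners in a complex stood at unlike levels. In the TIM23 complex, Timm23 was at 98.4 ± 15.1 TPM in DN, against 9.90 ± 0.487 for its receptor Timm50. In the disulfide relay, Chchd4 was at 6.45 ± 0.237 TPM in DN, below Gfer at 33.8 ± 3.54, and at 33.3 ± 0.968 TPM in DP, nearer to Gfer at 50.8 ± 0.267. Tomm5 stood at 75.7 ± 3.21 TPM in DN, below Tomm7 at 126 ± 11.8, and at 225 ± 6.84 TPM in DP, above Tomm7 at 147 ± 0.973.

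Per exon length, the order of the Timm17 paralogues was also exchanged. Timm17b at 16.4 ± 0.716 TPM was above Timm17a at 10.6 ± 1.62 in DN, and in DP Timm17a at 15.8 ± 0.140 was above Timm17b at 9.47 ± 1.02 TPM. With the length of the longest transcript in place of the exon union, the means were 13.0 and 8.47 TPM in DN and 7.46 and 12.6 TPM in DP for Timm17b and Timm17a, in the same order. Those lengths, 7280 bases for Timm17a and 2381 for Timm17b, are close to the exon unions of 7893 and 2557 bases. In CPM Timm17a was above Timm17b in every library, so the exchange rests on the lengths used.

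**Figure D4:**
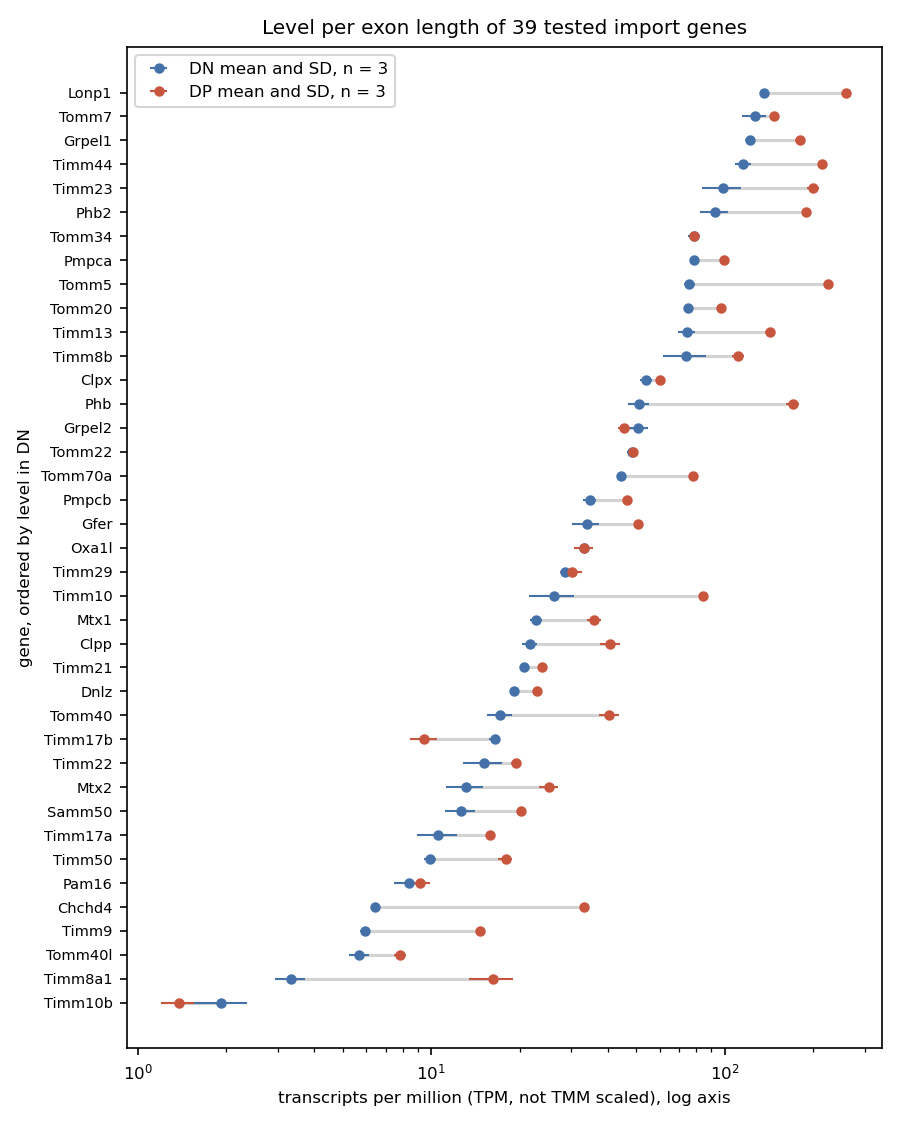
Mean TPM per group (horizontal log axis, bars SD over 3 libraries) of the 39 tested import genes, ordered from the lowest to the highest DN level; grey lines join DN in blue and DP in red. Chchd4, Timm8a1, Tomm5 and Phb have long lines, and Timm17b runs from 16.4 down to 9.47 TPM.

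Ratios of related genes within a library do not depend on library scaling, and 8 pairs were compared, paralogues or partners of 1 complex. For 6 of the 8 the 3 DP ratios lay wholly apart from the 3 DN ratios, and an exact two-sided permutation test gave p = 0.1, the smallest that 3 against 3 can give, or 0.133 after Benjamini-Hochberg adjustment over the 8 pairs. None could therefore pass 0.05. How many other pairs of genes would lie apart in this way was not counted. Of all tested genes 75.9% were called, so the separation is not read as a trait of these pairs. The log2 ratio of Timm17a to Timm17b was 1.29, 0.88 and 0.77 in the DN libraries and 2.50, 2.42 and 2.20 in the DP libraries. That of Timm8a1 to Timm8b was -3.09, -2.60 and -3.35 in DN and -1.61, -1.22 and -1.15 in DP. The log2 ratio of Timm10 to Timm10b was higher in DP by 2.17. It rests on 15 to 30 Timm10b counts per library, and 22.1% of the exon bases of Timm10b are shared with other genes.

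Smaller shifts towards the first gene were seen for Tomm40 over Tomm40l (0.77), for the exchange factors Grpel1 over Grpel2 (0.71) and for Phb over Phb2 (0.70). The first of these shifts is less certain, because most exon bases of Tomm40l are shared with Nr1i3. Metaxins and peptidase subunits behaved otherwise. The log2 ratio of Mtx1 to Mtx2 was 0.77 ± 0.28 in DN and 0.48 ± 0.15 in DP and that of Pmpca to Pmpcb 0.92 ± 0.08 and 0.84 ± 0.04 (SD, n = 3, exact permutation p = 0.2 for each pair), and the groups overlapped in both pairs.

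**Figure D5:**
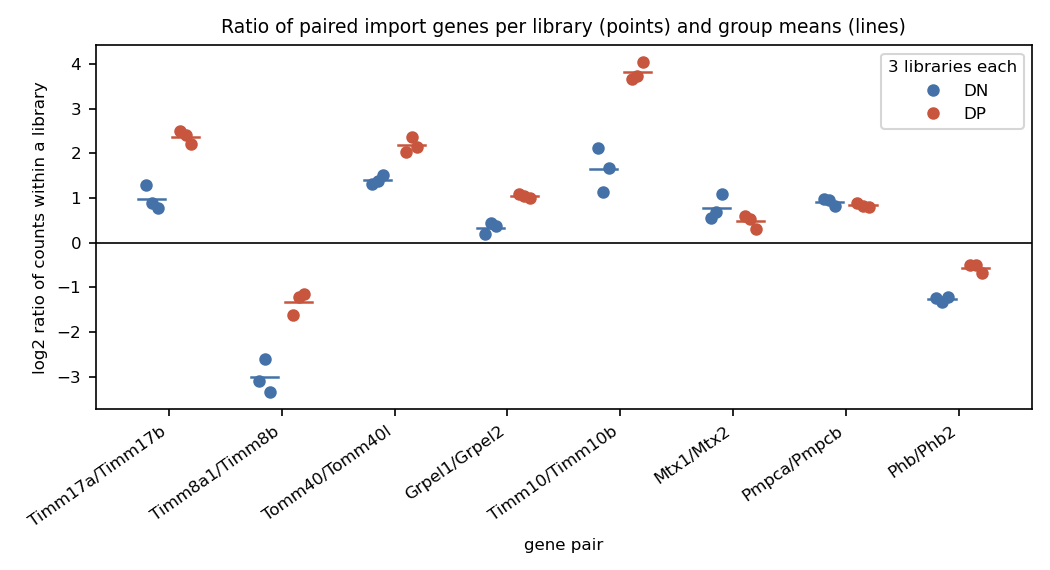
Log2 ratio of counts of 2 related genes within a library (vertical axis) for 8 pairs, with DN in blue and DP in red; points are libraries, side by side without order, and lines are group means. DP points lie above all DN points for every pair except Mtx1/Mtx2 and Pmpca/Pmpcb, where they overlap.

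Genes that work beside the import machinery were counted from 7 lists with 64 tested genes, 46 of which rose and 7 fell, with a median log2 change of 0.55. The shares over all tested genes, against which this count and those of the single lists are read, were 38.3% higher and 37.6% lower. With library totals alone 41 rose and 13 fell. All 7 tested genes of the motor and folding list rose, among them Hspd1, the chaperonin that folds imported proteins, from 372 ± 5.41 to 2250.1 ± 57.7 CPM (2.60 ± 0.04), and Hspa9, the mitochondrial Hsp70 itself, from 519 to 2648 CPM (2.35 ± 0.04). Cytosolic chaperones that keep precursors unfolded rose in 8 of 9 cases, led by Hsp90ab1 (1.58 ± 0.03) and Hsp90aa1 (1.31 ± 0.04), and Dnajb1 fell by 0.13 ± 0.06.

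Among other import and insertion factors 9 of 12 rose and 2 fell. Of the 9, Immp2l had 13 counts over the DN libraries and 91 over the DP libraries. It passed the filter on low counts only through DP, and it is also counted in the rises over all lists. The presequence-degrading protease Pitrm1 rose by 1.62 ± 0.05 and Dnajc11, a partner of the sorting machinery, by 1.56 ± 0.04, whereas Mtch1, an outer membrane insertase, fell by 0.46 ± 0.07 and the inner membrane peptidase subunit Immp1l by 0.47 ± 0.14. Of 8 inner membrane quality control genes 6 rose, such as Stoml2 (1.23 ± 0.05) and Parl (1.18 ± 0.06), and Spg7, a subunit of the m-AAA protease, fell by 0.35 ± 0.05. Its partner subunits Afg3l1 and Afg3l2, named after their values were seen, rose by 1.01 ± 0.05 and 1.05 ± 0.05. Of 8 genes of cristae organisation 7 rose and none fell, with Immt (0.58 ± 0.04) and Chchd3 (0.47 ± 0.04) having the smallest p.

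Substrates of the disulfide relay moved in both directions. Of 15 tested genes whose products carry paired cysteine motifs or are taken in by MIA40, 7 rose, 2 fell and 6 did not pass, with a median of 0.22 and a summed level of 342 ± 8.15 CPM in DN and 387 ± 5.95 CPM in DP. Ndufa8 rose by 0.75 ± 0.06 and Chchd1 by 0.67 ± 0.08, while Cox6b1 fell by 0.27 ± 0.06 and Chchd5 by 0.78 ± 0.22. A difference between substrates and relay was not tested as such. Of 5 tested genes that respond to mitochondrial stress 2 rose, 1 fell and 2 did not pass. These are too few to set against the shares over all tested genes. Asns rose by 1.80 ± 0.08, its regulator Atf4 rose by 0.12 ± 0.04 and Ddit3 fell by 0.35 ± 0.12, with Chac1, Fgf21 and Gdf15 too low to test.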

How the data were processed

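Read counts per gene were deposited as 1 table per library, not normalized. Trim Galore 0.6.6, HTSeq 0.13.5 and STAR 2.7.10a, and mm10 as build, are named per the submitters' processing notes, and per the labels' protocols the libraries were stranded. Not given in the sources used here are the annotation release, the strand setting and the handling of identifiers. Summary rows that name no gene held 12.4% to 12.9% of counts in the DN libraries and 9.47% to 9.61% in the DP libraries. They were left out. Reads that met no annotated gene were 6.66% to 7.29% in DN and 4.01% to 4.20% in DP. What lies behind this difference between the groups was not tested.

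DP was compared with DN, grouped by title, over all genes with the quasi-likelihood test of edgeR 4.0.16 (R 4.3.3, TMM, filterByExpr with a minimum count of 10, robust, Benjamini-Hochberg adjustment over 11296 tested genes, called under 0.05). The procedure was tested on simulated data in which few genes changed, as many up as down. That test does not cover the choice of scaling factors. Standard errors came from the fold change and its F statistic. TPM used exon unions of GENCODE M21 for mm10, to which 42 of 43 import genes matched with and all without their version, and pseudogene copies were found with blastn 2.17.0. Libraries of a group differed beyond sampling noise (chi-square of 1.96 to 3.26 per degree of freedom), so none was a mere resequencing of another. Whether they came from separate mice cannot be read from this. Alternatives were other scaling factors, filters, tests (DESeq2 1.42.0, limma-voom 3.58.1) and thresholds, a replicate block and each library left out. An alternative with DP reads thinned to the average DN depth was added after the data were seen.

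Members and lists were chosen with earlier results of these data known. Named genes were, per role, the 2 with the largest change and all that fell or did not pass, the genes of the 8 pairs, 16 core genes, and of each partner list the 2 with the smallest p and those called against its majority. A few others were added.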

Additional observations from a re-analysis of the deposited data

How the results depend on the processing

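Across 623 combinations of an import gene and an alternative, 609 kept the call and direction, 8 lost a call in the same direction, 3 gained one and 3 changed sign. With library totals alone the sign changed for Grpel2 (-0.16, adjusted p = 0.00472) and for Oxa1l (-0.0029, adjusted p = 0.970), which also lost its call. Grpel2, not called with all libraries, changed sign without DN replicate 2 as well (-0.0135, adjusted p = 0.822) and ranged up to 0.0941 with another library left out (without DN replicate 1). The number of called import genes was 33 to 37 in the alternatives other than a minimum fold of 1.5, where it was 22, beside 3876 of all genes and 25 of the partner genes. The median log2 change of the import genes was 0.59 with library totals alone and 0.86 with no filter, and 0.75 to 0.88 with 1 library left out. The log2 ratio of summed levels was 0.88, and 0.68 with library totals alone. The median TPM of the import genes in DP was 38.4, and 42.1 with the length of the longest transcript. Deviations of same-numbered libraries had correlations of 0.07, 0.00 and -0.01, and those of the other DN and DP pairings ran from -0.05 to 0.05. Counting noise can hide a weak shared deviation, so whether the numbers pair libraries of the same mouse stays unknown. With the replicate block 36 import genes and 8589 of all genes were called. For all 8 pairs the sign of the difference in log2 ratio between DP and DN was kept with 1 count added and with each library left out. Counts in DN were lowest for Timm8a1 (11 to 14 per library) and Timm10b (15 to 21), whose changes had standard errors of 0.22 and 0.29.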
